A study of Mus musculus with 4 samples.

Results

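The collagen genes of the mouse were followed across the cells of malignant ascites. All gene symbols made of Col, a number, the letter a and a number were taken, which gave 44 of the 29835 genes listed. Of these, 42 were listed with at least 1 transcript in control, 42 with BTYNB, 44 with anti-PD-1 and 42 with the combination. Levels are given as CPM, which is the number of unique molecular identifiers (UMIs, 1 per captured transcript) of a gene per 1000000 UMIs of the same cells. Of the 44 genes, 30 reached 30 UMIs in at least 1 library among tumour-gated cells and 22 did so among leukocytes, and 11 did so in neither gate. The measured values of the 30 and 22 genes can serve only as a description of genes high enough to be counted.

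Collagens are built from chains wound into a triple helix. Fibrillar collagens form the tensile fibres of connective tissue, type IV chains form the sheet-like network of basement membranes, and type VI chains form beaded filaments that link cells to fibres. Further members sit on the surface of fibres (FACIT collagens), span the plasma membrane, or carry the cleavable domains of the multiplexins. In the peritoneal cavity, collagen is made mainly by mesothelial cells and fibroblasts, and ovarian carcinoma cells floating in ascites carry matrix of their own.

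The mice were female C57BL/6 animals, 6 weeks old at injection, and all groups carried ID8-Trp53-/- cells, a mouse ovarian surface epithelial cancer line without p53. Treatment began 7 days after engraftment and ended at about 3 mL of ascites. The control group received DMSO and an IgG2a isotype antibody, the BTYNB group received BTYNB (a small-molecule inhibitor of the RNA-binding protein Igf2bp1) and the isotype antibody, the anti-PD-1 group received DMSO and an antibody that blocks the T cell receptor PD-1, and the combination group received BTYNB and the PD-1 antibody. The doses on the labels are 50 mg/kg of BTYNB and 100 ng of antibody, whereas different amounts stand in the study's methods. Cells of mice with the same treatment were pooled before capture, so each group is 1 library, no spread between animals could be measured, and no test between groups was made.

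Cell barcodes numbered 7858 for control, 19247 for BTYNB, 12163 for anti-PD-1 and 7074 for the combination, with totals between 78603888 and 114600397 UMIs per library. Tumour cells were gated by at least 5 UMIs over Krt7, Krt8, Krt18, Krt19 and Wt1 and no UMI of the leukocyte gene Ptprc, which kept 7114, 3606, 10923 and 4369 cells in control, BTYNB, anti-PD-1 and combination. All 11 tumour genes of the marker list had UMIs in the gated cells of every library, although Bnc1, a transcription factor of mesothelium, stood at only 0.28 to 0.45 CPM. Leukocytes were gated by at least 1 Ptprc UMI and at most 2 keratin UMIs, which kept 320, 10771, 348 and 1851 cells. The BTYNB library stood apart: its smallest deposited cell had 869 UMIs against 3533 to 5115 in the other libraries, and 58.9% of its kept cells were leukocytes against 2.90 to 26.3%. The median tumour cell had 9783 UMIs in control, 15221 with BTYNB, 7160 with anti-PD-1 and 11503 with the combination, and the gates count UMIs, so they depend on depth. Across libraries, 13 cell labels were shared. Intervals below are exact 95% intervals that cover counting error only, and not the spread between cells or animals. In summed cells, fewer cells of a kind and less RNA per cell cannot be told apart.

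To show what lies before the starts of collagen genes whose levels are followed below, 250 bases upstream of the annotated start are printed for 2 fibrillar and 2 beaded filament chains, 5′ to 3′ on the gene's strand, from RefSeq on GRCm38.p6. The counts were made on GRCm39, and the windows were matched by symbol only. Capitals mark matches on either strand to 3 motifs, the TATA box with the letters TATAAA, then the CCAAT box, and the GC box with the letters GGGCGG. The Col1a2 window is at chr6:4505368-4505617 (plus strand), that of Col3a1 at chr1:45311288-45311537 (plus), that of Col6a1 at chr10:76726045-76726294 (minus) and that of Col6a2 at chr10:76623405-76623654 (minus).
Col1a2: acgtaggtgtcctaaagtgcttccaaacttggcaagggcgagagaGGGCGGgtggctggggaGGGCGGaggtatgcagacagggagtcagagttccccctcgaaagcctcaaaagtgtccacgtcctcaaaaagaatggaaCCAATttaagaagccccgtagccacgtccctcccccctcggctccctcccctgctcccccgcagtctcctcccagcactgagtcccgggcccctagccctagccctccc
Col3a1: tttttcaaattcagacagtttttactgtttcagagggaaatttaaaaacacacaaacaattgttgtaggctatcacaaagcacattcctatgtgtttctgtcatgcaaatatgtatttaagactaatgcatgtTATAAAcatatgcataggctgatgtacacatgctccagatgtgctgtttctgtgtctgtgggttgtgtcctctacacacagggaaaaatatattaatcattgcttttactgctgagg
Col6a1: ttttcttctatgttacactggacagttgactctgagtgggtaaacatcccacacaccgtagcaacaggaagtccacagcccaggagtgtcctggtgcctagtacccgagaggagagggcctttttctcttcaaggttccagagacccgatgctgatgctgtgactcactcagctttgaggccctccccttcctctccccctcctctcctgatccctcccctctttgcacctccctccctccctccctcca
Col6a2: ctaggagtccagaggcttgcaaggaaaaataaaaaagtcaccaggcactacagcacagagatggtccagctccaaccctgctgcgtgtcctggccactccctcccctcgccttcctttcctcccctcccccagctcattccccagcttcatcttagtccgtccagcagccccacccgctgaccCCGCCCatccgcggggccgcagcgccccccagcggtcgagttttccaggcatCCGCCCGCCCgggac
Positions are counted back from -1, the base before the start. Col1a2, whose protein is the second chain of type I collagen, had a CCAAT box from -109 to -105 and GC boxes from -205 to -200 and from -188 to -183. Col3a1 had a TATA box from -117 to -112. Col6a2 had 3 GC boxes on the other strand, of which those beginning at -15 and -11 overlap each other, and Col6a1 had none of the 3 motifs. Entries were found for 35 of the 44 collagen genes, with 38 windows, since some genes have more than 1 start. A TATA box was in 5 of the 38 windows and in 12.4% of the 32851 mouse windows of the same length, a CCAAT box in 13 and in 33.8%, and a GC box in 22 and in 32.7%. These are matches of letters and say nothing of binding.

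Among tumour-gated cells the type I chains were higher in both libraries with BTYNB than in both without it. Col1a1, the major chain of type I collagen, stood at 29.2 CPM in control, 55.7 with BTYNB, 24.3 with anti-PD-1 and 53.2 with the combination. Col1a2 stood at 28.0, 56.6, 21.4 and 50.8 CPM in the same order. Their ratio of UMIs, which is not scaled to transcript length, ranged from 0.984 (0.937 to 1.03) in BTYNB to 1.13 (1.06 to 1.21) in anti-PD-1. Over the whole gate both chains were higher in the same libraries. They did not go together in every part of the gate, as given further below. As log2 ratios, Col1a2 was higher by 1.02 (0.94 to 1.10) in BTYNB than in control and by 1.24 (1.16 to 1.33) in combination than in anti-PD-1. The ratios of Col1a1 were 0.93 (0.85 to 1.01) and 1.13 (1.05 to 1.22). As shown further below, these UMIs came from few cells, so the intervals understate the error, and the Col1a2 ratio for BTYNB over control was -0.91 once cells with a UMI of the fibroblast gene Pdgfra were left out. Over all kept cells, whatever their gate, the sum of both chains stood at 80.3 CPM in control, 77.9 with BTYNB, 88.6 with anti-PD-1 and 100.02 with the combination, so the difference between BTYNB and control in type I was seen within the tumour gate and not over the whole library, in which leukocytes took different shares.

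Col3a1, the chain of type III collagen that forms the thinner fibres of soft tissue, stood at 18.9 CPM in control, 40.2 with BTYNB, 21.8 with anti-PD-1 and 38.9 with the combination. Its log2 ratio was 1.09 (0.99 to 1.18) for BTYNB over control and 0.84 (0.74 to 0.93) for the combination over anti-PD-1. Col5a2, a type V chain that sets the width of fibres, was likewise higher in both libraries with BTYNB, with 10.2, 16.3, 8.94 and 16.9 CPM. Its partner chain Col5a1 stood at 2.36, 4.49, 1.98 and 3.78 CPM. Col5a1, Col5a2 and Col3a1 were thus each higher in both libraries with BTYNB than in both without it.

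The remaining fibrillar genes were near the counting floor. Col27a1, a fibrillar chain of cartilage, had 22, 39, 14 and 27 UMIs, or 0.293, 0.674, 0.170 and 0.484 CPM, and log2 ratios of 1.20 (0.41 to 2.02) for BTYNB over control and 1.51 (0.53 to 2.56) for the combination over anti-PD-1. Col5a3, a further type V chain, had 25, 24, 18 and 32 UMIs, and its ratio passed 2-fold only for the combination over anti-PD-1, at 1.39 (0.52 to 2.31). Col24a1 stood at 0.880, 1.47, 0.594 and 0.95 CPM. Col11a1, with 24 to 40 UMIs per library, showed no contrast whose interval left out 0.

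The basement membrane chains differed less between libraries. Col4a1, which pairs with Col4a2 in the common type IV network, stood at 112 CPM in control, 124 with BTYNB, 114 with anti-PD-1 and 129 with the combination. Col4a2 stood at 45.9, 43.9, 41.5 and 45.5 CPM, with the libraries with and without BTYNB overlapping. Its log2 ratio for BTYNB over control was -0.06 (-0.14 to 0.01). The Col4a1 to Col4a2 ratio of UMIs was 2.44 in control and 2.74 to 2.83 in the other libraries.

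The type IV chains encoded on the X chromosome differed more. Col4a5 stood at 36.5, 48.1, 32.5 and 48.6 CPM, with log2 ratios of 0.40 (0.32 to 0.47) for BTYNB over control and 0.58 (0.50 to 0.66) for the combination over anti-PD-1. Col4a6, which joins Col4a5 in the basement membranes of smooth muscle and some epithelia, stood at 13.4, 20.8, 14.4 and 24.2 CPM, with ratios of 0.64 (0.52 to 0.76) and 0.76 (0.64 to 0.87). The 2 pairs of type IV chains were thus not alike, since Col4a2 was nearly level where Col4a5 and Col4a6 were higher in both libraries with BTYNB. Col4a4, a chain of kidney basement membrane, had only 22 to 42 UMIs.

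Type VI collagen was also higher in both libraries with BTYNB. Col6a1 stood at 79.9 CPM in control, 105 with BTYNB, 67.7 with anti-PD-1 and 113 with the combination. Col6a2, its partner in every type VI molecule, stood at 40.8, 67.3, 37.3 and 75.0 CPM. The log2 ratios were 0.39 (0.34 to 0.44) and 0.74 (0.69 to 0.79) for Col6a1, and 0.72 (0.65 to 0.79) and 1.01 (0.94 to 1.07) for Col6a2, each for BTYNB over control and for the combination over anti-PD-1. The Col6a1 to Col6a2 ratio of UMIs stood at 1.96 without and 1.56 with BTYNB, and under anti-PD-1 at 1.82 without and 1.51 with BTYNB, with intervals that do not overlap between these pairs of libraries.

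Col6a3, the large alpha-3 chain of the classical type VI molecule, stood at 2.09, 2.57, 1.19 and 2.81 CPM. Its log2 ratio was 0.30 (-0.04 to 0.63) for BTYNB over control and 1.24 (0.87 to 1.62) for the combination over anti-PD-1, so only the second passed 2-fold. Col6a6, an alternative to that chain, stood at 1.60, 2.06, 0.970 and 1.86 CPM.

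Not all collagens were higher with BTYNB. Col17a1, a transmembrane collagen of the hemidesmosomes that anchor epithelia, stood at 15 CPM in control, 14.5 with BTYNB, 20.4 with anti-PD-1 and 11.7 with the combination. It was therefore lowest in the libraries with BTYNB, although the control and BTYNB values differed by less than their intervals, with a log2 ratio of -0.05 (-0.18 to 0.08). Col22a1, a FACIT collagen of tissue junctions, was the other gene lower in both libraries with BTYNB, at 0.693, 0.363, 0.521 and 0.251 CPM. Its log2 ratio for the combination over anti-PD-1 was -1.06 (-2.04 to -0.16) on 14 and 43 UMIs.

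Col15a1, a multiplexin of basement membrane zones, set the anti-PD-1 library apart. It stood at 4.39 CPM in control, 5.60 with BTYNB, 12.1 with anti-PD-1 and 5.80 with the combination, so the other 3 libraries lay close together. Its log2 ratio was 1.46 (1.28 to 1.64) for anti-PD-1 over control and -1.05 (-1.24 to -0.87) for the combination over anti-PD-1. Col20a1, a FACIT collagen, was also highest in anti-PD-1, at 0.827, 1.05, 1.81 and 1.36 CPM, with a ratio of 1.13 (0.69 to 1.58) against control. Among other FACIT genes, Col16a1 stood at 9.22, 14.6, 13.4 and 13.8 CPM, so that control was lower than each treated library. Col9a3 and Col12a1 lay between 1.75 and 3.98 CPM, and Col14a1 and Col19a1 between 0.909 and 1.23 CPM.

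Col18a1, the multiplexin whose end domain is endostatin, stood at 1.57, 2.32, 1.33 and 2.29 CPM. Col8a2, a short-chain network collagen, stood at 0.400, 0.881, 0.352 and 0.448 CPM on 25 to 51 UMIs, with a ratio of 1.14 (0.46 to 1.84) for BTYNB over control. Col28a1 had 19 to 55 UMIs. Near the floor of 30 UMIs, Col5a3 with at most 32 was just inside, and Col23a1 with at most 29 and Col25a1 with at most 26 were just outside. The genes under 30 UMIs in tumour cells and in leukocytes alike were Col2a1, Col4a3, Col6a4, Col7a1, Col8a1, Col9a1, Col9a2, Col10a1, Col13a1, Col25a1 and Col26a1. Of these, Col9a2 and Col10a1 were listed only in anti-PD-1, with 2 UMIs and 1 UMI in tumour cells.

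**Figure D1:**
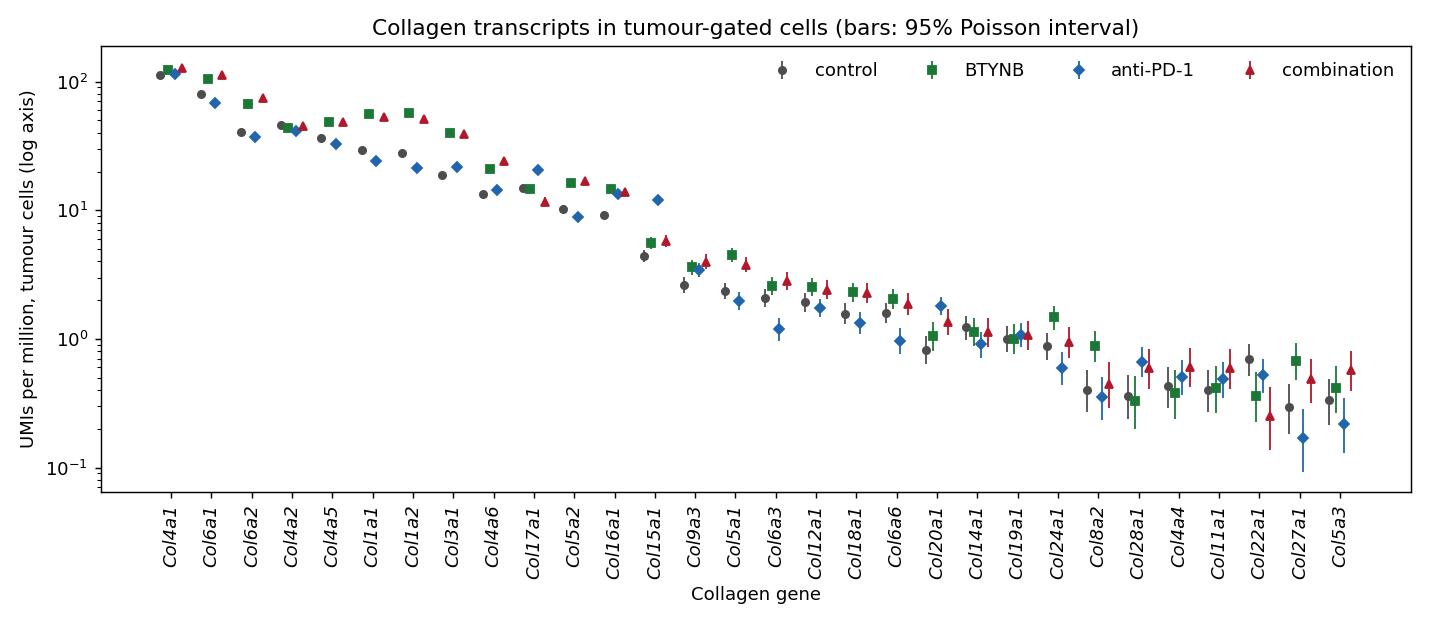
The plot gives levels (CPM) in tumour-gated cells on a log axis for the 30 collagen genes with at least 30 UMIs in a library, with 1 point per library and 95% Poisson intervals as bars. The points of BTYNB and combination lie above those of control and anti-PD-1 for Col1a1, Col1a2, Col3a1, Col5a2, Col6a1 and Col6a2, while Col15a1 stands out in anti-PD-1 alone at 12.1 CPM.

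Summed over all 44 genes, collagen made up 465 CPM of tumour cells in control, 640 with BTYNB, 450 with anti-PD-1 and 654 with the combination. The log2 ratio was 0.46 (0.44 to 0.48) for BTYNB over control, -0.05 (-0.07 to -0.03) for anti-PD-1 over control, 0.54 (0.52 to 0.56) for the combination over anti-PD-1 and 0.03 (0.01 to 0.05) for combination over BTYNB. The ratio of anti-PD-1 to control turned sign under other scalings and gates, to 0.01 with median-of-ratios scaling and 0.34 among cells below both state gates, so no direction is read from it. The sign of combination over BTYNB also changed, to -0.01 without the 5% of cells with the most UMIs.

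By class, fibrillar genes summed to 90.8, 176, 80.1 and 167 CPM, beaded filament genes to 125, 177, 107 and 193 CPM, and basement membrane genes to 208, 237, 203 and 248 CPM. The log2 ratios of BTYNB over control were 0.96, 0.51 and 0.19 in that order, and those of the combination over anti-PD-1 were 1.06, 0.85 and 0.29. Without Col1a1, Col1a2 and Col3a1 the collagen sum was 388, 488, 382 and 511 CPM, so the order of the libraries did not rest on these 3 genes.

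Counted gene by gene, 20 of the 30 collagens (66.7%) lay above both libraries without BTYNB in both libraries with it, whereas 29% of the 16129 genes measured in tumour cells did so. In the opposite direction there were 2 of 30 (6.67%), Col17a1 and Col22a1, against 18.7% of all genes, and the remaining 8 overlapped. The 20 include Col27a1 and Col5a3, which passed the floor of 30 UMIs only through BTYNB and only through the combination. The count takes no account of intervals. Several of the 20 had large parts of their UMIs in the same few cells, as given below, so they are not separate observations. Every contrast below shares a library with another contrast, so their values are not independent of each other.

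For BTYNB over control, 4 of 30 collagens were at least 2-fold higher (Col1a2, Col3a1, Col8a2 and Col27a1) and none was 2-fold lower, beside 2.64% of all genes higher and 1.66% lower. In tumour cells with no UMI of Col1a1 or Col1a2, Col27a1 stood at 0.0843 CPM in control and 0.0757 with BTYNB. Col8a2 stood there at 0.211 and 0.322 CPM, and Col3a1 at 13.2 and 30.3. The intervals of Col27a1 and Col8a2 can thus understate the error, as those of type I do. The median collagen log2 ratio was 0.39, against 0.02 over all genes, and 24 of 30 were above 0. For the combination over anti-PD-1, 6 were higher (Col1a1, Col1a2, Col5a3, Col6a2, Col6a3 and Col27a1) and 2 lower (Col15a1 and Col22a1), beside 2.95% and 3.68% of all genes. In tumour cells with no type I UMI, Col5a3 stood at 0.0255 CPM in anti-PD-1 and 0.0198 in combination. Col27a1 stood there at 0.0127 and 0.139 CPM, Col6a3 at 0.382 and 0.714, and Col6a2 at 33.5 and 66.3. There the median collagen ratio was 0.53 against 0.07, and again 24 of 30 were above 0. Col27a1 passed the floor of 30 UMIs only through BTYNB, and Col5a3 only through the combination, the libraries where each was highest. Their calls in the contrast with that library are thus not independent of the floor, which was the same for all genes.

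For anti-PD-1 over control, 2 of 30 were 2-fold higher (Col15a1 and Col20a1) and none lower, beside 4.82% and 1.4% of all genes, which puts the share of higher collagens near that of all genes. The median was -0.16 against -0.06. For combination over BTYNB no collagen was past 2-fold in either direction, beside 0.887% higher and 0.397% lower of all genes, and the median was 0.03 against -0.01. Within the tumour gate the collagen sum was thus higher with BTYNB both with and without the PD-1 antibody, and adding the PD-1 antibody to BTYNB left no collagen past 2-fold.

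Type I transcripts were held by few cells. Over all kept cells, those with at least 10 UMIs of Col1a1 and Col1a2 together numbered 103 in control, 57 with BTYNB, 148 with anti-PD-1 and 81 with the combination, or 1.31%, 0.312%, 1.23% and 1.15% of cells. They held 93.5%, 93.4%, 91.4% and 91.2% of all type I UMIs, while 92.6 to 97.6% of cells had none. This cut marks a range of a count and not a cell type, and 11, 17, 19 and 22 further cells lay just under it with 5 to 9 UMIs.

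These type I cells were found in every gate. Of them, 67, 34, 73 and 56 were in the tumour gate, 12, 7, 18 and 8 in the leukocyte gate, and 24, 16, 57 and 17 in neither. Their share of tumour-gated cells was 0.942% (0.731 to 1.19) in control, 0.943% (0.654 to 1.32) with BTYNB, 0.668% (0.524 to 0.840) with anti-PD-1 and 1.28% (0.970 to 1.66) with the combination. With cells thinned to 3500 UMIs and the cut set at 5, the shares were 0.956%, 1.06%, 0.641% and 1.17%, with 574 shallower BTYNB cells left out. The intervals of control and BTYNB overlap, so a difference in the share of such cells between these 2 libraries was not detectable. Those of anti-PD-1 and combination did not overlap, before or after thinning, and the share was higher in combination.

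The number of type I UMIs in such a cell also differed between libraries. The median type I cell of the tumour gate had 55 type I UMIs in control, 151 with BTYNB, 35 with anti-PD-1 and 80.5 with the combination. Its median total was 7538, 15061.5, 6479 and 9740 UMIs, so depth moved in the same order, and its part in the difference was not tested. The tumour cells outside this range held 5.22, 6.28, 7.34 and 9.94 CPM of type I transcripts, an order that does not follow BTYNB.

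Other collagens shared these cells to different degrees. Since the cut uses Col1a1 and Col1a2, their own shares are fixed by it. Of the 27 collagen genes with at least 30 UMIs in every library, 6 had over 30% of their UMIs in type I cells in every library, and 14 had under 10% in every library. Besides the type I chains the genes over 30% were Col6a3 with 60.9 to 85.2%, Col5a1 with 52.8 to 66.3%, Col18a1 with 44.6 to 55.1% and Col24a1 with 39.7 to 65.4%. Col3a1 had 25.2 to 38.5% and Col5a2 20.4 to 27.2%. The main chains of type VI had less, with 8.68 to 10.9% for Col6a1 and 12.9 to 17.1% for Col6a2, and type IV less still, with 4.71 to 7.38% for Col4a1 and 1.29 to 2.11% for Col4a5. Col17a1 had at most 0.281% there. Col6a1 and Col6a3, chains of the same molecule, thus lay far apart in this measure.

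**Figure D2:**
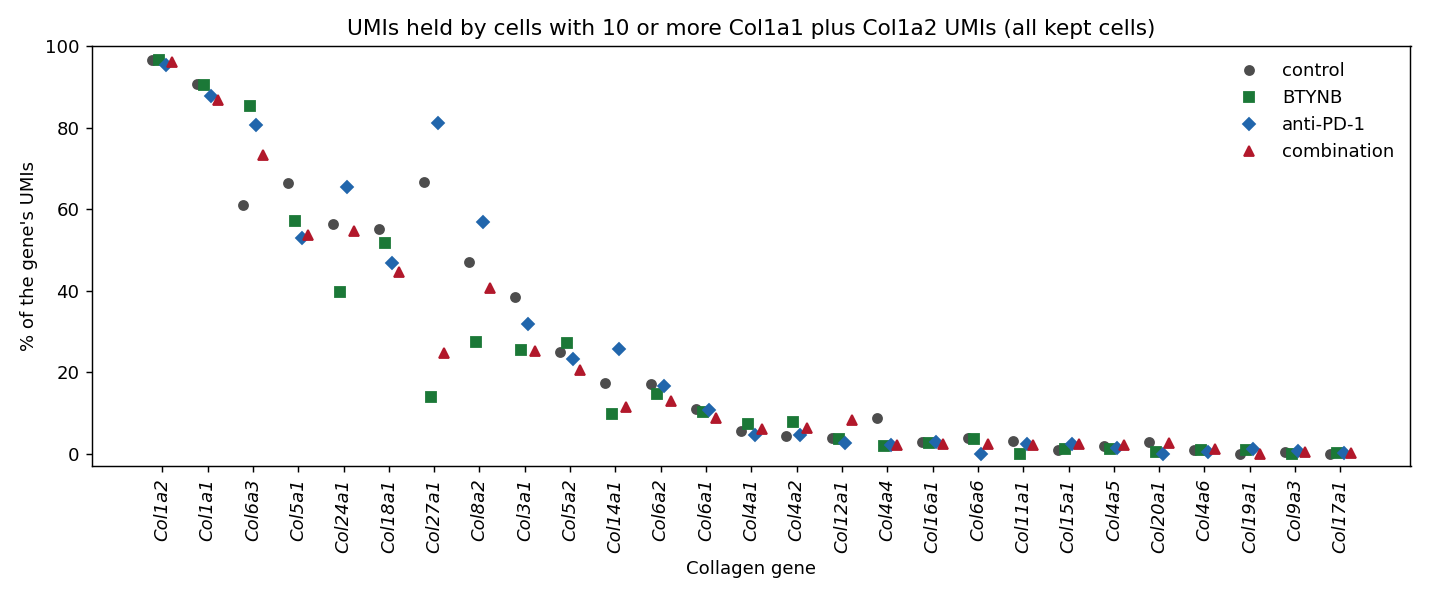
For each of the collagen genes with enough UMIs, the vertical axis gives the percentage of its UMIs that lay in cells with at least 10 Col1a1 plus Col1a2 UMIs, with 1 point per library over all kept cells. Col1a2 and Col1a1 stand at the top because they define the cells, Col6a3 at 60.9 to 85.2% follows, and Col17a1 stands at or near 0.

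The type I cells carried other stromal matrix genes. Pdgfra, a growth factor receptor that marks fibroblasts, stood at 421, 717, 446 and 401 CPM in them and at 3.55 to 5.19 CPM in tumour cells with no type I UMI. Dcn, the fibre-binding proteoglycan decorin, stood at 843 to 1269 CPM against 203 to 297. Bnc1, a gene of mesothelium, stood at 33.2 to 44.5 CPM against 0.0189 to 0.0595, although 20.3 to 35.1% of the type I cells had a UMI of it. Other tumour genes of the marker list that no gate uses were mixed. Lrrn4 (49.3 to 132 against 7.96 to 13.6 CPM) and Upk1b (286 to 516 against 202 to 266) were higher. Muc16 (9.17 to 37.6 against 38.9 to 82.8) and Gpm6a (183 to 241 against 256 to 399) were lower in each library. Msln was higher in control and combination and lower in BTYNB and anti-PD-1. The median type I cell had 4 to 5 keratin UMIs and 2 to 5 Wt1 UMIs, against 11 to 18 and 4 to 12 in the tumour cells without type I. A Ptprc UMI was found in 20.3 to 23.3% of them, with a median of 0, and the medians of endothelial, macrophage and leukocyte markers were 0 as well. The summed levels were not low: macrophage and monocyte markers stood at 995, 357, 1431 and 657 CPM, against 19.8 to 77.8 in tumour cells without type I. Leukocyte markers stood at 545 to 627 CPM against 17.7 to 114, and a UMI of these markers was in 35.0 to 45.3% of the type I cells. Pericyte and smooth muscle markers had a median of 1 to 2 UMIs in them against 0. No cell type name is given to these cells.

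Because Pdgfra separated the type I cells in every library, the contrasts were repeated within tumour cells with and without a Pdgfra UMI, an alternative chosen after the data had been seen. Such cells numbered 310 in control, 289 with BTYNB, 374 with anti-PD-1 and 287 with the combination, and they took 4.30%, 10.9%, 3.17% and 7.39% of tumour UMIs. The Pdgfra share was therefore higher in both libraries with BTYNB, whose cells were also deeper, and 1 UMI is enough for the call. All 8 genes of the fibroblast list had UMIs in every library, and their sum was 295 CPM in control, 321 with BTYNB, 218 with anti-PD-1 and 262 with the combination, nearly all of it Dcn, which tumour cells without type I UMIs carried too. Pdgfra (6.12, 11.9, 6.11 and 8.76 CPM), Thy1 (0.693, 1.81, 0.643 and 2.28) and Fap (0.320, 0.536, 0.255 and 0.681) were higher in both libraries with BTYNB, and the other 5 genes of the list were not. The pericyte and smooth muscle list summed to 23.6, 26.8, 21.96 and 28.5 CPM, also higher in both libraries with BTYNB. The part of such cells in the collagen levels was not tested. Dpt and Lum, which mark fibroblasts of connective tissue, were at or below 0.12 CPM over all tumour-gated cells. In the type I cells of all gates Lum stood at 11.4, 11.1, 13.7 and 4.43 CPM, on 4 to 12 UMIs. Dpt stood at 1.11 to 2.29 CPM there, on 1 to 2 UMIs. In tumour cells with no type I UMI both were at or below 0.0562 CPM.

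Within Pdgfra-positive tumour cells the type I level hardly differed between libraries. Col1a1 stood at 506, 441, 502 and 496 CPM there, with log2 ratios of -0.20 (-0.29 to -0.11) for BTYNB over control and -0.02 (-0.12 to 0.08) for the combination over anti-PD-1. Col1a2 gave -0.09 (-0.18 to -0.00) and 0.04 (-0.06 to 0.14). In the tumour cells without Pdgfra, Col1a2 turned sign for BTYNB over control, at -0.91 (-1.19 to -0.64) on 2.99 against 5.62 CPM, and stayed higher in combination than in anti-PD-1, at 1.24 (1.05 to 1.42).

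The other chains behaved differently from type I. Without the Pdgfra-positive cells, Col3a1 stood at 14.0, 28.9, 17.6 and 31.7 CPM, with log2 ratios of 1.04 (0.93 to 1.16) and 0.85 (0.75 to 0.96). Col6a2 stood at 36.0, 58.7, 33.8 and 69.3 CPM, with ratios of 0.70 (0.63 to 0.78) and 1.03 (0.96 to 1.11). Col6a1 gave 0.38 and 0.75, Col4a5 0.39 and 0.58, and Col4a6 0.64 and 0.77, close to the ratios over all tumour cells. For these 5 genes the higher levels with BTYNB thus remained without these cells, and for Col1a2 against control they did not. Other chains of types IV and VI differed from them: Col4a2 gave -0.15 (-0.23 to -0.07) and 0.09 (0.01 to 0.17), and Col6a3 gave -1.17 (-1.89 to -0.49) for BTYNB over control and 1.21 (0.63 to 1.81) for the combination over anti-PD-1. Col1a1 gave 0.11 (-0.07 to 0.29) and 1.05 (0.90 to 1.19). The collagen sum without Pdgfra-positive cells had log2 ratios of 0.30 and 0.45.

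**Figure D3:**
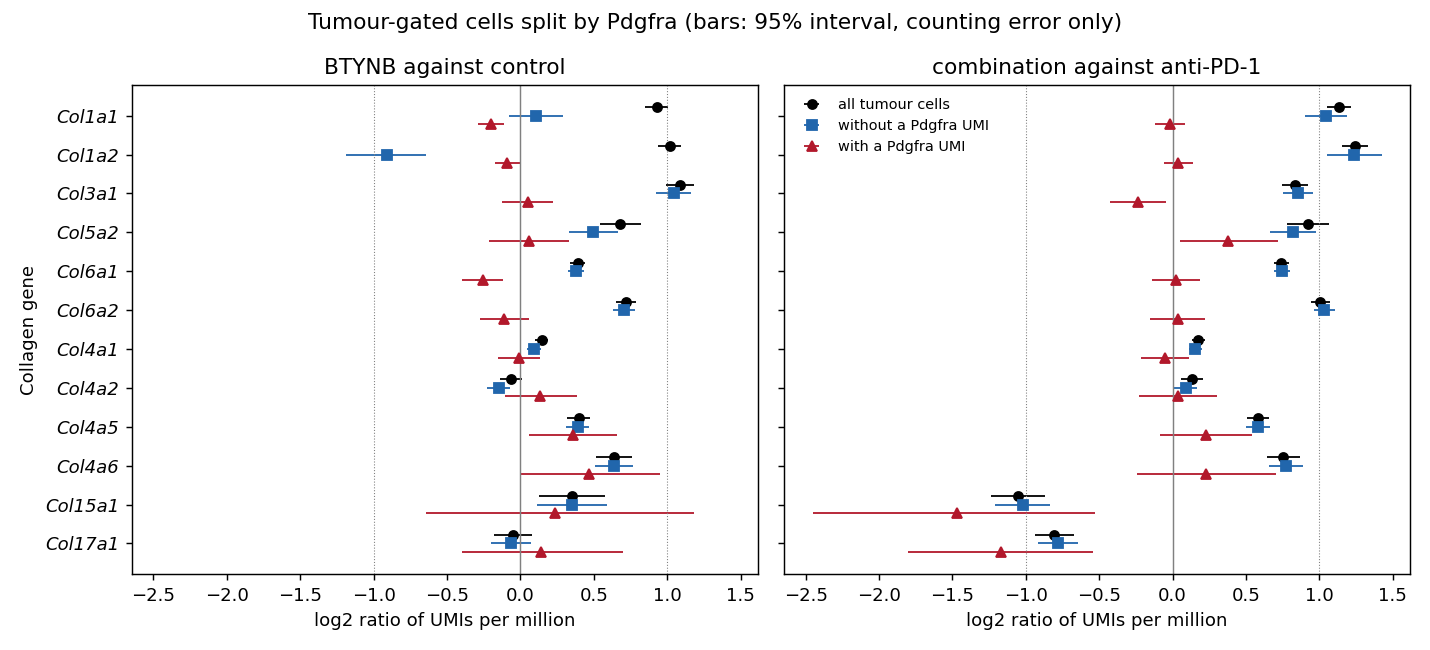
Log2 ratios of CPM for BTYNB over control (left) and combination over anti-PD-1 (right) are shown for 12 collagen genes in all tumour-gated cells, in those without a Pdgfra UMI and in those with one, with 95% counting intervals as bars and dotted lines at 2-fold. Col3a1, Col6a1, Col6a2, Col4a5 and Col4a6 keep their place without Pdgfra-positive cells, whereas Col1a2 moves from 1.02 to -0.91 in the left panel.

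Collagen genes also separated the tumour cells by state. Cells with at least 5 UMIs of Upk3b and Aldh1a1, a mesothelial surface gene and an aldehyde dehydrogenase, and fewer than 5 of Cd24a, Gkn2 and Krtdap numbered 4256, 2240, 5686 and 3036. Cells below both gates numbered 2373, 933, 2466 and 702. In BTYNB the cells below both gates were shallow, with a median of 3933 UMIs against 16874.5 in the Upk3b and Aldh1a1 cells. The same medians were 9346 against 9615.5 in control, 6207 against 6715.5 in anti-PD-1 and 8972 against 11322.5 in combination. No collagen gene was used by these gates.

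In each library Col1a1 and Col1a2 were lower, and Col3a1, Col5a2, Col6a1 and Col6a2 higher, in the Upk3b and Aldh1a1 cells than in cells below both gates. Col1a1 stood at 20.8 against 52.4 CPM in control, 56.8 against 144 in BTYNB, 17.7 against 66.8 in anti-PD-1 and 50.4 against 136 in combination. The log2 ratios lay from -1.92 to -1.33. These levels rested on few type I cells. They numbered 28 against 39 in control, 23 against 11 in BTYNB, 22 against 39 in anti-PD-1 and 33 against 21 in combination. Without them both chains together stood at 5.41 against 5.37 CPM in control and 9.61 against 7.38 in anti-PD-1. The sum stayed lower in BTYNB, at 6.04 against 10.3, and in combination, at 9.48 against 15.4. Col3a1 was higher in the Upk3b and Aldh1a1 cells, at 24.6 against 12.6, 50.7 against 27.7, 35.4 against 16.2 and 48.9 against 25.6 CPM, with ratios from 0.87 to 1.13.

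Col6a1 gave ratios of 1.63, 0.66, 1.09 and 1.0, and Col5a2 of 1.40, 0.88, 1.39 and 0.96, in the order of the libraries. Their partner chains went the other way: Col5a1 gave -0.60, -1.01, -0.61 and -0.58 and Col6a3 gave -1.70, -1.46, -2.65 and -2.19, so neither type V nor type VI moved as a whole. Large parts of the Col5a1 and Col6a3 UMIs also lay in type I cells, as given above. Col4a5 was higher by 0.54, 0.55, 0.83 and 0.82, while Col4a1 gave 0.04, -0.13, 0.09 and 0.07. Col1a1 and Col3a1 thus differed in direction within all 4 libraries, with no overlap of the intervals. Those of Col1a1 count UMIs held mostly by few cells and understate the error. Over the collagen sum these opposite directions left a mean log2 ratio of 0.05 ± 0.18 (SD, n = 4), higher in 2 of 4 libraries, with an exact two-sided sign-flip permutation p of 0.75, where the smallest possible p was 0.125. Without Pdgfra-positive cells the sum was higher in 4 of 4 libraries, by 0.56 on average.

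Cells with at least 5 UMIs of Cd24a, Gkn2 and Krtdap and fewer than 5 of Upk3b and Aldh1a1 were frequent in anti-PD-1 alone, with 1491 cells against 38 in control, 12 in BTYNB and 39 in combination. In anti-PD-1 they were low in most collagens. Col6a1 stood at 7.87 CPM in them against 105 in the Upk3b and Aldh1a1 cells of that library, a log2 ratio of -3.74 (-4.04 to -3.46). Col6a2 gave -4.05 (-4.50 to -3.63), Col3a1 -3.51 (-4.00 to -3.05), Col4a5 -2.63 (-2.93 to -2.34) and Col4a1 -1.33 (-1.45 to -1.22).

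Col15a1 was higher in them, at 19.4 against 7.22 CPM, a ratio of 1.43 (1.18 to 1.67), as was Col9a3 at 0.86 (0.39 to 1.31), and Col17a1 was nearly level, at 18.9 against 19.9 CPM. These cells held 249 of the 994 Col15a1 UMIs of the anti-PD-1 tumour cells. In the other states Col15a1 was also highest in anti-PD-1, at 7.22 CPM against 4.15 to 5.24 CPM in the Upk3b and Aldh1a1 cells, 10.8 against 4.52 to 6.72 CPM in cells below both gates, and 21.4 against 5.65 to 7.54 CPM in cells that reached 5 UMIs on both gene sets. The 12 to 39 cells of the other libraries were too few to place: the Col6a1 ratio was -0.03 (-0.49 to 0.40) in control, -0.46 (-1.30 to 0.26) in BTYNB and -1.20 (-1.84 to -0.62) in combination.

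**Figure D4:**
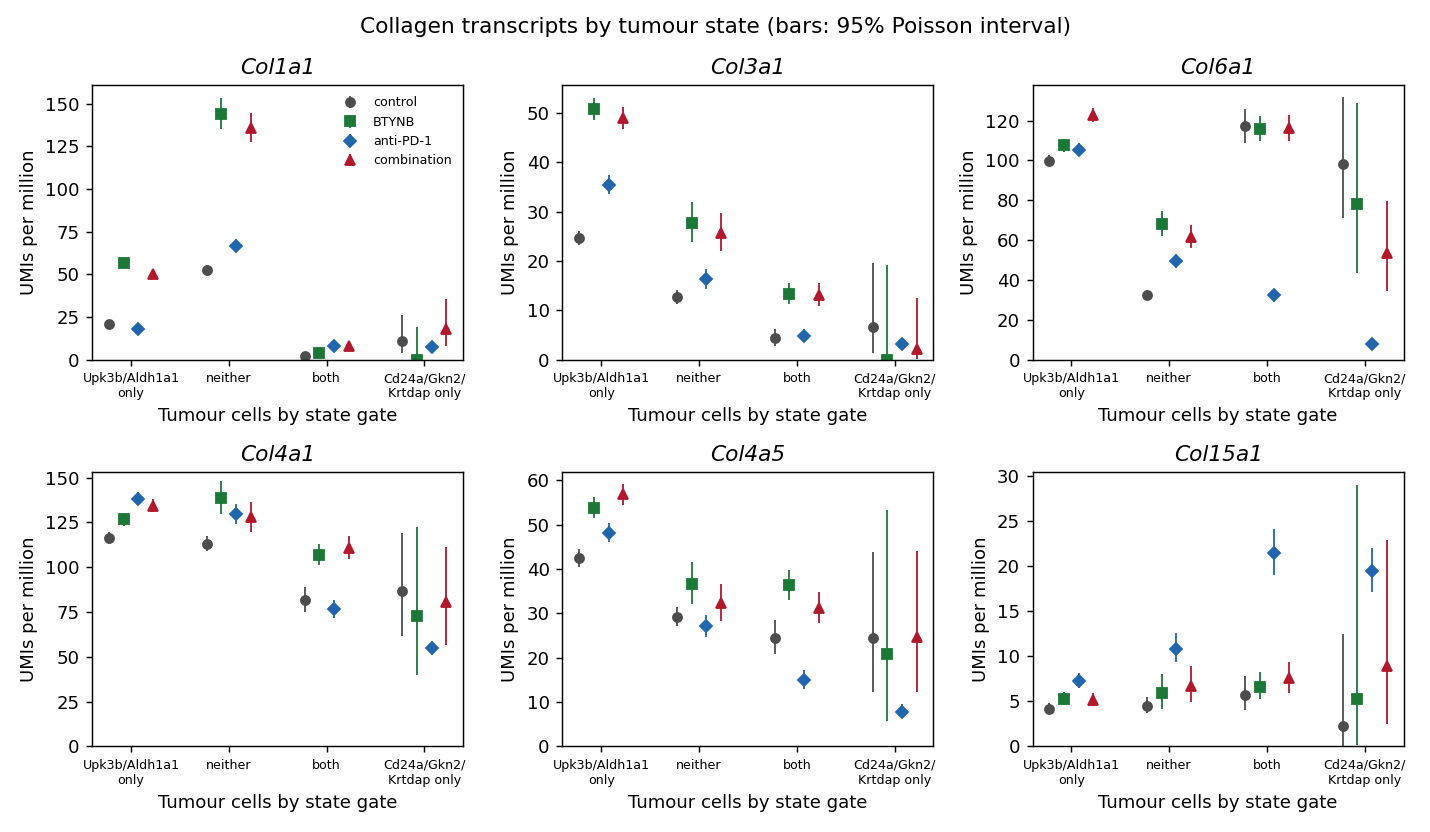
Each panel gives CPM of 1 collagen gene for the tumour cells of 4 state gates, with 1 point per library and 95% Poisson intervals as bars. Col1a1 is higher in cells below both gates than in the Upk3b and Aldh1a1 cells, Col3a1, Col6a1 and Col4a5 are lower there, and Col15a1 is highest in anti-PD-1 in each state.

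In leukocytes the collagen sum was 604 CPM in control, 82.9 with BTYNB, 855 with anti-PD-1 and 145 with the combination. Against tumour cells of the same library the log2 ratio was 0.38, -2.95, 0.93 and -2.17, with a mean of -0.95 ± 1.90 (SD, n = 4) and an exact two-sided sign-flip permutation p of 0.5. The control ratio turned sign under other gates, to -0.80 with leukocyte keratin UMIs at 0 and -0.15 with at least 2 Ptprc UMIs. That of anti-PD-1 was 1.14 and 0.16 there, and BTYNB and combination stayed below 0. No direction is read for control. The high values rested on type I chains, with Col1a1 at 179, 8.90, 279 and 26.3 CPM and Col1a2 at 187, 7.10, 248 and 27.6 CPM. Of the type I UMIs of the gate, 83.2 to 99.1% were in the 7 to 18 type I cells it held. Without Pdgfra-positive cells in both gates, the leukocyte sum was lower than the tumour sum in all 4 libraries, by log2 ratios of -1.86, -2.91, -1.16 and -2.80.

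The remaining low level was set beside free RNA, which gives cells UMIs of genes they do not express. As a measure, 6 tumour genes that no gate uses (Msln, Lrrn4, Upk1b, Bnc1, Muc16 and Gpm6a) had leukocyte to tumour log2 ratios of -2.85, -3.98, -2.40 and -3.51. Bnc1 alone, which went with the type I cells, gave 1.32, -2.20, 3.19 and -2.61. In the BTYNB library, whose leukocytes could be split into lineages by their markers, Col4a1 had 14.3 UMIs per 100 UMIs of these genes in T cells, 15.4 in B cells, 14.1 in NK cells, 19.0 in neutrophils, 17.6 in macrophages and monocytes, and 20.1 in dendritic cells. Among tumour cells it had 15, within the interval of each lineage, and its level in these leukocytes was 5.34 to 17.7 CPM. Other chains did not match in every lineage of BTYNB. Col6a1 had 12.72 in tumour cells, against 7.58 (5.08 to 10.9) in B cells and 9.02 (6.23 to 12.71) in T cells. Col4a2 had 5.33 in tumour cells, against 8.77 (6.02 to 12.4) in T cells and 10.4 (5.79 to 17.4) in dendritic cells. In the other lineages named, the tumour value of each lay within the interval. In macrophages and monocytes the Col4a1 ratio was above that of tumour cells in control, at 55.3 (38.6 to 78.4) against 18.9, and in anti-PD-1, at 36.5 (25.02 to 52.4) against 18.4. The leukocyte gate held 12 type I cells in control and 18 in anti-PD-1. Over all gates, Col4a1 stood at 630 and 544 CPM in the type I cells of these libraries. In their leukocytes with no type I UMI it stood at 15.5 and 18.8 CPM. The parts of free RNA and of type I cells in these levels were not tested.

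A few other collagens differed more between lineages. Col8a2 stood at 24.4 CPM (17.7 to 32.9) in NK cells of the BTYNB library and at 0.585 in T cells, 0.371 in B cells and 0 in dendritic cells and neutrophils. It had a UMI in 39 of 566 NK cells, or 6.89%, and in 3 of 2259 T cells, or 0.133%, at median depths of 2661.5 and 1976 UMIs. Thinned to 1000 UMIs the shares were 2.13% and 0.045%. Per 100 UMIs of the tumour genes, NK cells had 55.1 Col8a2 UMIs and tumour cells 0.107. Other libraries held fewer than 50 NK cells and gave no level.

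Col27a1 stood at 16.9 CPM (13.6 to 20.8) in B cells and 15.9 (12.8 to 19.5) in dendritic cells of the BTYNB library, against 0.390 in T cells, 0 in NK cells and 0.647 in macrophages and monocytes. In combination it stood at 7.23 CPM (4.77 to 10.5) in dendritic cells, and no UMI was found in the 61 B cells, for which the upper bound of the interval was 9.43 CPM. In macrophages and monocytes of control, anti-PD-1 and combination it was at 4.09, 3.76 and 2.33 CPM. A Col27a1 UMI was found in 2.96% of B cells and 7.35% of dendritic cells of the BTYNB library against 0.0885% of T cells, and after thinning in 1.60%, 2.73% and 0.045%.

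Col23a1, a transmembrane collagen, had too few UMIs among tumour cells to pass the floor but stood at 8.56 CPM (6.31 to 11.4) in BTYNB and 10.2 (7.20 to 14.0) in combination dendritic cells. In macrophages and monocytes of the 4 libraries it was at 0.274 to 0.752 CPM. Col14a1, a FACIT collagen, had the opposite place, at 6.13, 4.53, 6.77 and 5.75 CPM in macrophages and monocytes of control, BTYNB, anti-PD-1 and combination, and at 0.357 and 0.536 CPM in dendritic cells of BTYNB and combination. In BTYNB, 12 of its 56 UMIs in macrophages and monocytes came from 1 cell.

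The other 2 genes that passed the floor in leukocytes alone were Col6a5 and Col11a2. Col6a5, another alternative to the alpha-3 chain of type VI, stood at 5.17 CPM (3.47 to 7.43) in dendritic cells of BTYNB and 2.68 (1.28 to 4.93) in those of combination, against 0.371 in B cells of BTYNB. In T cells of BTYNB it stood at 1.75 CPM (0.802 to 3.33), in NK cells at 1.70 (0.351 to 4.97) and in neutrophils at 0. Col11a2, a fibrillar chain of cartilage, stood at 5.85 CPM (3.95 to 8.35) in T cells and 7.07 (3.05 to 13.9) in neutrophils of BTYNB, against 1.07 (0.393 to 2.33) in dendritic cells. In B cells it stood at 3.16 CPM (1.84 to 5.06) and in NK cells at 2.84 (0.921 to 6.62), intervals that overlap those of T cells and neutrophils.

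**Figure D5:**
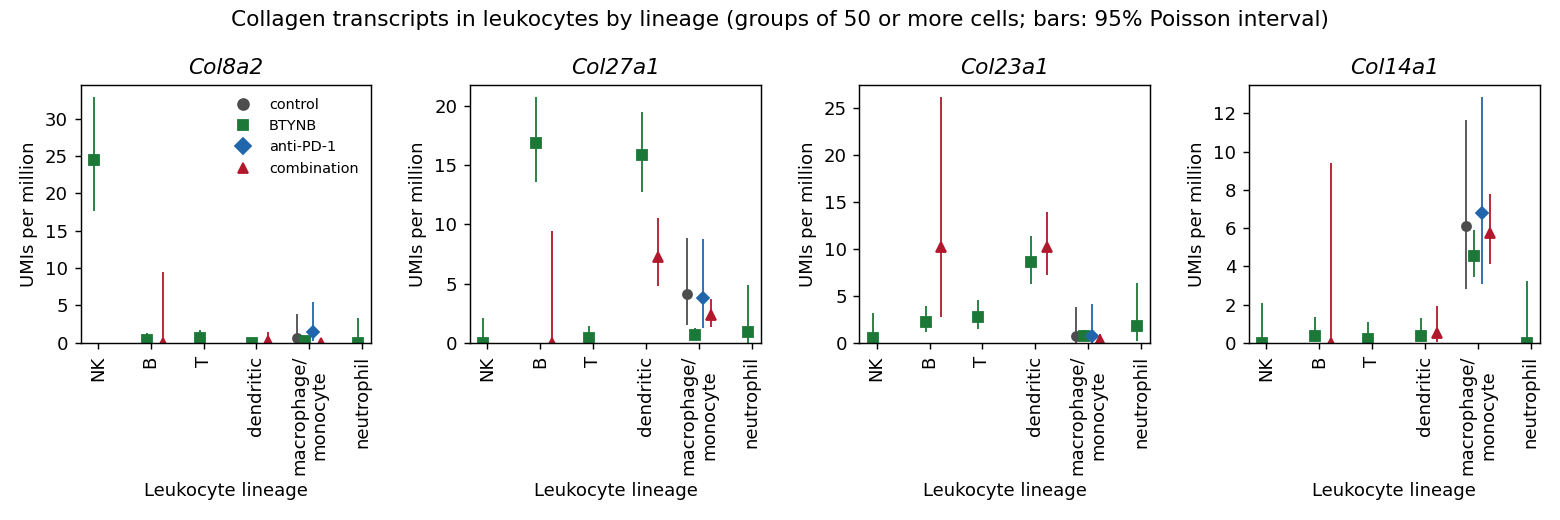
CPM of 4 collagen genes are shown by leukocyte lineage, with 1 point per library that held at least 50 cells of the lineage and 95% Poisson intervals as bars. Col8a2 is high in NK cells, Col27a1 in B and dendritic cells, Col23a1 in dendritic cells and Col14a1 in macrophages and monocytes, and the 61 B cells of combination have wide intervals.

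The genes that make, cut and bind collagen were read list by list, beside medians of 0.39 over the collagens and 0.02 over all genes for BTYNB over control. The median log2 ratio there was 0.39 over degradation and its inhibitors (9 of 13 above 0), 0.31 over processing and crosslinking (7 of 11), 0.25 over matrix partners (15 of 19), 0.13 over receptors (5 of 8), 0.095 over the TGF-beta axis (12 of 15) and -0.0092 over modification and folding (10 of 20). The medians for the combination over anti-PD-1 were 0.13, 0.22, 0.12, 0.027, -0.081 and 0.011 in that order, beside 0.53 over the collagens and 0.07 over all genes. Counts past 2-fold are set beside the shares of all genes given above, which for BTYNB over control were 2.64% higher and 1.66% lower.

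Of 20 measured genes for modification and folding, none was 2-fold higher or lower for BTYNB over control. P4hb, a subunit of the prolyl hydroxylase, stood at 714, 718, 739 and 615 CPM in tumour cells, the collagen chaperone Serpinh1 at 720, 645, 561 and 552, and Mia3, which loads collagen into transport vesicles, at 117, 119, 102 and 107. In anti-PD-1, 2 of the 20 were 2-fold higher than in control, P4ha1 and P3h3, beside 4.82% of all genes. P4ha1, the catalytic subunit of prolyl hydroxylase, stood at 35.8, 35.9, 75.3 and 29.6 CPM, so that it was high in anti-PD-1 alone.

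Of 11 measured genes for processing and crosslinking, none passed 2-fold for BTYNB over control, 1 (Loxl3) was above 2-fold for anti-PD-1 over control and 1 (Adamts2, which removes the N-terminal propeptide of fibrillar collagens) higher in combination than in anti-PD-1. Pcolce, an enhancer of C-propeptide removal, stood at 196, 165, 153 and 160 CPM, the crosslinking enzyme Loxl2 at 150, 113, 118 and 106, and the C-proteinase Bmp1 at 16.5, 21.0, 18.1 and 21.1. Adamts2 stood at 1.04, 2.04, 0.764 and 1.58 CPM, the order of the type I chains.

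Among 13 measured genes of degradation and its inhibitors, 3 were 2-fold higher and none lower for BTYNB over control (Mmp9, Mmp13 and Ctsk), a larger share than the 2.64% of all genes, and all were under 2 CPM in both libraries. Timp2 stood at 1476, 1056, 1011 and 916 CPM, Timp3 at 508, 481, 393 and 430, and Timp1 at 40.8, 41.6, 57.4 and 47.9. For anti-PD-1 over control 2 were higher, the collagenase Mmp13 at 0.320, 1.59, 30.02 and 0.967 CPM and the stromelysin Mmp10 at 2.13, 3.58, 17.2 and 4.16 CPM, and for the combination over anti-PD-1 the same 2 were lower and Fap was higher.

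Of 19 measured matrix partners, 3 low genes (Lama4, Nid2 and Lamb3) were 2-fold higher for BTYNB over control, again above the share of all genes, and none was lower. Sparc, which helps collagen fold and leave the cell, stood at 2109, 1848, 1818 and 1853 CPM, Fn1 (fibronectin) at 364, 405, 387 and 390, and Dcn at 287, 306, 210 and 250. Of 8 receptors none passed 2-fold for BTYNB over control. Itgb1 stood at 552, 451, 468 and 450 CPM, Cd44 at 193, 166, 354 and 165, and the collagen-binding kinase Ddr1 at 142, 193, 153 and 181, the last higher in both libraries with BTYNB than in both without it. Of 15 genes of the TGF-beta axis, 1 (Tgfbi, a secreted collagen-binding protein, at 63.6, 31.5, 49.4 and 29.3 CPM) was 2-fold lower for BTYNB over control, beside 1.66% of all genes. Ccn1 stood at 239, 304, 217 and 335 CPM, Tgfb2 at 105, 112, 82.6 and 113, and Ccn2 at 92.3, 87.9, 106 and 97.7. For the combination over anti-PD-1, 1 modification gene (P4ha1) and 1 receptor (Cd44) were 2-fold lower, 1 matrix partner (Nid2) was higher, and no gene of the TGF-beta axis passed 2-fold.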

How the data were processed

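Single cells of mouse ascites were profiled in 4 libraries, 1 per treatment, each pooled from several animals. According to the study's methods, the authors captured cells on the BD Rhapsody HT system, removed dead cells, and turned reads into whole-number UMI counts per gene and cell with the BD Rhapsody Sequence Analysis Pipeline. The submitters' processing notes name the genome build GRCm39, and the deposited counts were used without normalization. All columns belonged to a sample.

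Cells with under 200 genes or over 33% mitochondrial UMIs were removed. The members, gates and lists were chosen with earlier results of these data known. Counts were summed per library and gate and scaled to 1000000 UMIs (CPM). Levels carry exact Poisson intervals, shares Clopper-Pearson intervals and ratios exact binomial ones, at the 95% level, and a count of 0 was set to 3 counts in a ratio. With 1 library per group a gene was called past 2-fold with no test, and within-library differences over 4 libraries were given an exact sign-flip permutation test. The ratio script recovered 4-fold changes put into simulated Poisson counts. Such counts have no spread between cells, so this does not cover smaller folds or UMIs held by few cells.

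Shares were also taken after thinning cells to 1000 UMIs, or to 3500 for type I cells. Lineages (T, B, macrophage/monocyte, dendritic, neutrophil, NK, mast/basophil) were set by the most marker UMIs, with at least 3 UMIs and 3 times the next lineage, and levels were given for at least 50 cells. No doublet caller was run: the gates alone exclude mixed cells in part, and an alternative left out the 5% of cells with the most UMIs. Collagen genes at or above 20 CPM in a library, or past 2-fold with an interval that leaves out 0, were named with all values (17 genes), as were the 3 members of each pathway list with the highest mean level. Other genes were named after their values were seen. Per-library totals ranged from 78603888 to 114600397 UMIs, and tumour-gated cells summed to 55814017 to 82474422. Of other cell lists in tumour-gated cells, endothelial genes summed to 23.2 to 37.8 CPM, pericyte and smooth muscle genes to 22.0 to 28.5, leukocyte genes to 18.9 to 113 and platelet genes to 4.92 to 7.56. Python 3.11.15, numpy 2.4.6, scipy 1.17.1, pandas 2.3.3 and matplotlib 3.10.9 were used. Alternatives changed the scaling, quality limits, depth floor, gates, pseudocount, fold, UMI floor and, after seeing the data, left out cells with a Pdgfra UMI.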

Additional observations from a re-analysis of the deposited data

Results flagged for a closer look

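Col15a1 differed in direction between the 2 contrasts that add BTYNB. Its log2 ratio in tumour cells was 0.35 (0.13 to 0.58) when BTYNB was set over control, and -1.05 (-1.24 to -0.87) when the combination was set over anti-PD-1, on 4.39, 5.60, 12.1 and 5.80 CPM in control, BTYNB, anti-PD-1 and combination. The difference between the contrasts was not tested, since each group is 1 library.

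Cells that passed neither the tumour nor the leukocyte gate were left out of the comparisons above, and they held type I collagen. In these cells Col1a1 stood at 355 CPM and Col1a2 at 357 CPM in anti-PD-1, above the 204 and 219 CPM of control. With BTYNB they stood at 54.2 and 45.3 CPM, and with the combination at 77.5 and 68.0 CPM, both below control, the opposite direction to tumour-gated cells. Cells of neither gate numbered 400, 3906, 748 and 822 in control, BTYNB, anti-PD-1 and combination, with median depths of 7481.5, 1651.5, 5311.5 and 9178.5 UMIs. Leukocyte markers summed to 703, 1692, 871 and 1382 CPM in them, so the mix of cells differed between libraries. Among them were 24, 16, 57 and 17 of the cells with at least 10 type I UMIs. These carried 98.5%, 92.9%, 98.4% and 94.0% of the type I UMIs outside both gates.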

How the results depend on the processing

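Each group is 1 library pooled over animals, so a spread between animals was not measured, and intervals cover counting error only. Gates and calls of Pdgfra depend on depth, which was highest in BTYNB tumour cells, and 11 genes could not be placed at this depth. No paired analysis was possible because every group has 1 library with the same number and no replicate. Of the 14 ratios past 2-fold, recomputed under 9 settings, 124 of 126 values kept their direction and 98 stayed past 2-fold. The 2 that reversed were Col1a2 for BTYNB over control without Pdgfra-positive cells (-0.91) and Col22a1 for the combination over anti-PD-1 in cells below both state gates (0.056). The causes of the shifts below were not tested.

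The number of collagens past 2-fold for BTYNB over control was 4, and 2 with a mean over cells, 10 in cells below both state gates, 1 with a pseudocount of 1 CPM, 12 at a fold of 1.5, 2 with a floor of 100 UMIs and 7 with a floor of 1 UMI. For anti-PD-1 over control it was 2, and 1, 4, 1 and 7 under the first 4 of these and 4 with a floor of 1 UMI. For the combination over anti-PD-1 it was 8, and 5 below both state gates, 2 with the pseudocount, 17 at a fold of 1.5 and 5 with 100 UMIs. For the combination over BTYNB it was 0, and 1 each with a common floor of 5115 UMIs per cell, without the 5% of deepest cells, with a mean over cells and below both state gates, 3 without Pdgfra-positive cells, 4 at a fold of 1.5 and 2 with a floor of 1 UMI.

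The summed log2 ratio for BTYNB over control (0.46) was 0.50 with the common floor, 0.36 as a mean over cells, 0.44 with median-of-ratios scaling, 0.85 below both state gates, 0.56 with the tumour gate at 10 UMIs and 0.30 without Pdgfra-positive cells. For anti-PD-1 over control (-0.05) the same 6 settings gave -0.13, -0.089, 0.012, 0.34, -0.018 and 0.0082, and the 3 above 0 reversed it. For the combination over anti-PD-1 (0.54) the values were 0.65, 0.47, 0.46, 0.47 and 0.45, the gate at 10 UMIs leaving it in place. For the combination over BTYNB (0.03) the sign reversed without the deepest cells (-0.012), below both state gates (-0.044) and with the gate at 10 UMIs (-0.015), and the value was 0.16 without Pdgfra-positive cells. The mean state difference of the collagen sum (0.05) became 0.56 without Pdgfra-positive cells.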
